A study of Arabidopsis thaliana with 4 samples.

Results

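The genes LTP1 to LTP6, LTPG1 and LTPG2 of Arabidopsis thaliana were followed in sorted guard cells, the paired cells that open and close the stomatal pore. They are 8 of the 33602 genes in the deposited table and were taken by gene identifier. The genes were chosen by their family and selected on their TPM values in the 2 WT libraries against the 2 FAMA-LGK libraries, so that difference is given for these 8 genes as a description, without a test, and supports nothing. Guard cells were sorted by fluorescence from protoplasts of aerial tissue of seedlings at 12 days post germination, and RNA was sequenced from low-input libraries. Both genotypes have the same growth protocol. One is Wild Type (WT). The other is fama-1, a mutant of the guard cell transcription factor FAMA, carrying FAMAp:FAMA-LGK, a form of FAMA whose motif for contact with the retinoblastoma homologue is changed, expressed from the FAMA promoter (FAMA-LGK here). The design text speaks of differentiated and of reprogrammed guard cells but does not tie either word to a genotype. Each genotype had 2 libraries, and the marker used for the sort is not given in the sources used here.

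Non-specific lipid transfer proteins are small secreted proteins with a conserved set of cysteines held in disulphide bonds, which enclose a cavity that takes up fatty acids and other lipids. In aerial epidermis they are known for their part in moving wax and cutin precursors to the cuticle, and several respond to drought, cold or pathogens. LTP proteins are free in the cell wall, whereas LTPG proteins carry a glycosylphosphatidylinositol anchor that holds them on the outside of the plasma membrane. In the annotated genes the coding sequences of LTP1 to LTP6 ran to between 112 and 118 codons, and those of LTPG1 and LTPG2 to 193 codons each. All 8 held 1 pair of adjacent cysteine codons and 1 pair separated by a single codon, and the total number of cysteine codons lay between 8 and 10.

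Levels are in TPM (reads divided by gene length and scaled to the same total in each library), which can be set side by side between genes. The ratios of a gene's TPM values between libraries give whole reads, up to a factor common to the 4 libraries, and these are named below as reads. They came out whole for 19233 of the 19262 genes with at least 3 values above 0, and those genes held between 5596548 and 7495015 reads per library. Log2 fold changes are FAMA-LGK minus WT on log2(TPM + 1), which understates the change of low genes. All 10 guard cell markers were detected in both genotypes. At a limma adjusted p under 0.05, 6 were lower in FAMA-LGK, 1 (MYB60) was higher and 3 were not called, against 6.14% lower and 6.45% higher among all genes tested. Among the 6 was GORK, at 37.3 and 46.8 TPM in WT against 0.436 and 1.47 in FAMA-LGK. GORK passed the minimum mean of 1 TPM set for the fit only through the WT libraries, so it could be called in that direction alone. The calls of HT1, ALMT12 and TGG1 were lost without a filter on low values (adjusted p = 0.0664, 0.0625 and 0.0845). FAMA itself was at 66.1 and 65.6 TPM in WT against 94.3 and 81.2 in FAMA-LGK, and since reads of the mutated gene and of the transgene are counted as one, this does not check the labels. In bulk samples, fewer cells of a type and less RNA per cell cannot be told apart.

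LTP1 (AT2G38540), a cell wall protein of the epidermis, was at 4.54 and 3.41 TPM in the WT libraries and 136.2 and 102.6 in the FAMA-LGK libraries. Its lowest FAMA-LGK value was 22.6 times its highest WT value, so the genotypes did not overlap. These levels rest on 34 and 29 reads in WT against 1002 and 758 in FAMA-LGK. The means were 3.97 ± 0.800 and 119.4 ± 23.7 TPM (SD, n = 2 each), a log2 fold change of 4.59 (SE 0.25). Among all genes of a library, LTP1 stood at rank 9183 and 10036 in WT and at rank 486 and 776 in FAMA-LGK.

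LTP2 (AT2G38530) is the next gene upstream of LTP1 on the same strand, and its product is known for a part in holding the cuticle to the cell wall of the hypocotyl. It was at 1.27 and 0.248 TPM in WT against 8.16 and 8.13 in FAMA-LGK. LTP2 was thus low in every library, yet both FAMA-LGK values lay above both WT values, by at least 6.42 times. The WT values rest on 9 and 2 reads and the FAMA-LGK values on 57 in each library. The log2 fold change of LTP2 was 2.44 (SE 0.39), and 3.58 with a pseudocount of 0.1. LTP2 passed the minimum of 1 TPM on average only through the FAMA-LGK libraries.

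The coding sequences of LTP1 and LTP2 were 82.4% identical, and the longest run of identical bases in the genes was 40. The read length is not given in the sources used here, so how far reads could be shared between them was not tested. The ratio of LTP1 to LTP2 was 3.59 and 13.8 in the WT libraries and 16.7 and 12.6 in the FAMA-LGK libraries, but the WT ratios rest on only 9 and 2 LTP2 reads, so whether the genotypes differ in it was not detectable at this depth. The gene that follows LTP1 on the chromosome, AT2G38550, was at 2.69 and 2.13 TPM in WT against 5.69 and 3.85 in FAMA-LGK, without a call (log2 fold change 0.75, limma adjusted p = 0.188). The gene before LTP2, AT2G38520, was at 0 TPM in 3 libraries and 0.629 in WT replicate 2.

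LTPG1 (AT1G27950), known for exporting wax to the stem and silique cuticle, had the highest level of the 8 genes in every library. It was at 54.0 and 49.2 TPM in WT against 192.8 and 188.9 in FAMA-LGK, on 450 and 466 reads against 1579 and 1553. Replicates of a genotype lay close together and the genotypes far apart, with the lowest FAMA-LGK value 3.50 times the highest WT value. The means were 51.6 ± 3.37 and 190.8 ± 2.74 TPM (SD, n = 2 each), a ratio of 3.70 and a log2 fold change of 1.87 (SE 0.20). The last 23 bases of the gene overlap ECT9 on the opposite strand, which was at 0.895 TPM or less in each library.

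The bases before the start of LTP1, LTP2 and LTPG1, the 3 genes with the largest fold changes of the 8, are shown because LTP1 and LTP2 are neighbours that were both higher and LTPG1 had the highest level. Each window holds the 250 bases before the annotated gene start in the RefSeq assembly TAIR10.1. The windows are chr2:16130040-16130289, plus strand, for LTP1, chr2:16127926-16128175, plus strand, for LTP2 and chr1:9740258-9740507, plus strand, for LTPG1. They lie upstream of the first exon, outside any annotated gene. Capitals mark matches on either strand of the motifs searched, and lower case is all other sequence.
LTP1: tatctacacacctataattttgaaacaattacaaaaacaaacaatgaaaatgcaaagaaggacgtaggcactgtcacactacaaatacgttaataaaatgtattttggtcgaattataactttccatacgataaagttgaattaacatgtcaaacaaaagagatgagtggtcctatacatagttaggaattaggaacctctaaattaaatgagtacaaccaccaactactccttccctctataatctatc
LTP2: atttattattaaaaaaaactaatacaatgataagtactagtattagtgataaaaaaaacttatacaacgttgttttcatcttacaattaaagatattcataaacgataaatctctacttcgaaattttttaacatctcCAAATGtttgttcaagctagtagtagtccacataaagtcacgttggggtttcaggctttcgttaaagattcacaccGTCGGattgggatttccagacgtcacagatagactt
LTPG1: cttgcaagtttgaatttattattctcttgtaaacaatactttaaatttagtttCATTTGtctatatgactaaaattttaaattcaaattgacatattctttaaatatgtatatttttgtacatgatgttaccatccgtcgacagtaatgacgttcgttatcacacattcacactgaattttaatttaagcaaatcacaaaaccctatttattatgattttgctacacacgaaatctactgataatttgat

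The motifs were the L1 box of epidermal genes (TAAATGCA or TAAATGTA), the E-box of bHLH factors such as FAMA (CANNTG), the G-box (CACGTG, a form of the E-box), the core of the abscisic acid response element (ACGTGG or ACGTGT, which overlaps a G-box in part), the core of the drought response element (CCGAC), a MYB core (CNGTTA) and the TATA box (TATAAA). The LTP1 window held none of them. The LTP2 window held 1 E-box, CAAATG, whose first base is 112 bases before the start, and 1 drought response core, read as GTCGG from 36 bases before the start. The LTPG1 window held 1 E-box, CATTTG, 197 bases before the start.

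An E-box stood in the windows of 6 of the 8 genes and in 55.3% of the windows of all 27443 nuclear protein-coding genes. The drought response core was in 1 of 8 against 12.0% of all, and the MYB core in 2 of 8, LTP4 and LTP6, against 26.6%. The TATA box was in 1 of 8, LTP3, against 47.3%, the G-box in 0 against 6.49% and the abscisic acid core in 0 against 16.0%. An L1 box was in 0 of 8 windows of 250 bases against 4.49% of all. Within 1000 bases it was in 2 of 8, LTP2 and LTPG1, against 15.8% of all. At that length the G-box was in 3 of 8, LTP1, LTP3 and LTP4, against 14.8% of all. The abscisic acid core was in those and LTP5, 4 of 8, against 39.2%. The drought response core was in 2 (37.4% of all), the MYB core in 7 (68.0%), the TATA box in 7 (83.6%) and the E-box in 8 (96.2%). A match is a string of letters and not a site, and the authors' annotation may place the gene starts elsewhere.

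LTPG2 (AT3G43720), whose product shares the wax export role of LTPG1, was at 14.8 and 20.4 TPM in WT against 39.2 and 32.8 in FAMA-LGK. Both FAMA-LGK values were higher than both WT values, by at least 1.61 times. The log2 fold change of LTPG2 was 1.01 (SE 0.24). The ratio of LTPG1 to LTPG2 was 3.64 and 2.42 in WT against 4.91 and 5.75 in FAMA-LGK. Whether the genotypes differ in this ratio was not tested.

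LTP5 (AT3G51600), known from a gain-of-function form that disturbs pollen tube growth, was at 8.27 and 4.52 TPM in WT against 17.0 and 10.2 in FAMA-LGK. The replicates of each genotype lay far apart, and the lowest FAMA-LGK value was only 1.23 times the highest WT value. The log2 fold change of LTP5 was 0.99 (SE 0.35) and ran from 0.61 without WT replicate 2 to 1.36 without WT replicate 1. LTP12, next to LTP5 on the chromosome, was at 0 TPM in all 4 libraries.

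LTP3, LTP4 and LTP6 were barely detected. LTP3 (AT5G59320), an abscisic acid and drought responsive gene that the factor MYB96 activates, was at 0.830 TPM in WT replicate 1 and 0.705 in FAMA-LGK replicate 1 and at 0 in both second libraries. LTP4 (AT5G59310), its abscisic acid responsive neighbour on the opposite strand, was at 0.150 and 0.263 TPM in WT against 0.305 and 0 in FAMA-LGK. LTP6 (AT3G08770) was at 0.272 TPM in WT replicate 2 and at 0 in the other libraries. For these genes 3 reads are worth between 0.366 and 0.457 TPM, and LTP3 held 6 and 5 reads where it was seen and LTP4 and LTP6 at most 2, so a difference between the genotypes was not detectable at this depth. The coding sequences of LTP3 and LTP4 were 84.5% identical, with a longest run of 44 identical bases.

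**Figure D1:**
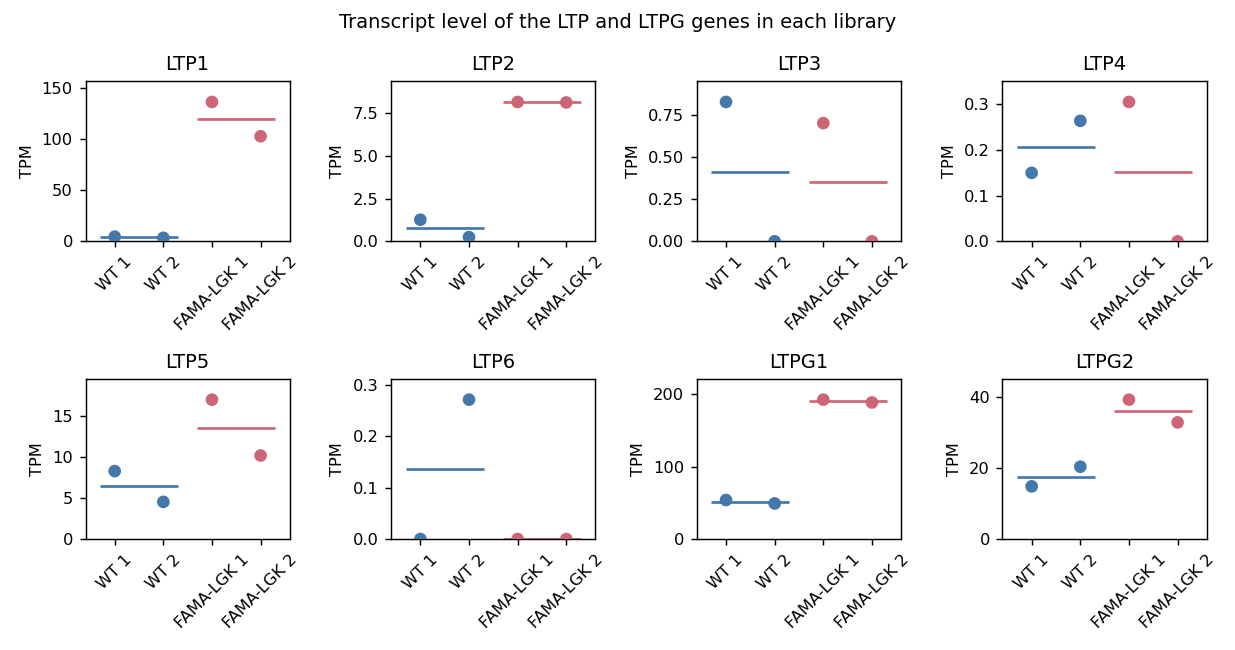
TPM (vertical axes, each starting at 0 with its own scale) of the 8 genes in the 2 WT libraries (blue) and the 2 FAMA-LGK libraries (red); points are libraries and lines are genotype means. The FAMA-LGK points lie above the WT points for LTP1, LTP2, LTP5, LTPG1 and LTPG2, while LTP3, LTP4 and LTP6 stay at 0.830 TPM or less.

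The genotypes did not overlap for 5 of the 8 genes, all higher in FAMA-LGK. Of the 15143 genes whose mean reached 1 TPM, 31.6% were higher in FAMA-LGK without overlap. In a limma fit of these 15143 genes, with Benjamini-Hochberg adjustment and a threshold of 0.05, 6.45% were called higher and 6.14% lower. Of the 8 genes, 5 reached that minimum; no call is given for them, since the difference served to choose them. A log2 fold change of at least 1 was seen for LTP1, LTP2, LTPG1 and LTPG2, 4 of the 8, and for 8.37% of all genes tested; LTPG2, at 1.01, lay just inside that size and LTP5, at 0.99, just outside. Because the family was picked with this difference in view, each count is printed beside the background and nothing is read from it. When either WT library was left out, limma called 0 of the 15143 genes (2675 and 2365 had an unadjusted p under 0.05), so every call named here rests on both WT libraries.

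Summed over the 8 genes, the level was 83.8 and 78.3 TPM in WT against 394.3 and 342.6 in FAMA-LGK, 4.55 times as high on average. LTP1 held 5.41% and 4.36% of the sum in WT and 34.5% and 29.95% in FAMA-LGK. LTPG1 and LTPG2 together held 82.0% and 88.9% in WT against 58.8% and 64.7% in FAMA-LGK, while their summed level was 226.8 ± 7.27 TPM in FAMA-LGK against 69.2 ± 0.540 in WT (SD, n = 2 each). The cell wall forms LTP1 to LTP6 summed to 15.1 and 8.71 TPM in WT and to 162.3 and 120.9 in FAMA-LGK.

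In WT the order of levels was LTPG1, LTPG2, LTP5, LTP1, and the rest at 1.27 TPM or less. LTP5 and LTP1 were neighbours in that order. LTP5 was above LTP1 within each WT library, at 8.27 against 4.54 TPM and at 4.52 against 3.41. Between libraries their values overlapped, since 4.52 lay just below 4.54. In both FAMA-LGK libraries the order was LTPG1, LTP1, LTPG2, LTP5, LTP2. LTPG1 was 11.9 and 14.4 times as high as LTP1 in WT and 1.42 and 1.84 times as high in FAMA-LGK.

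**Figure D2:**
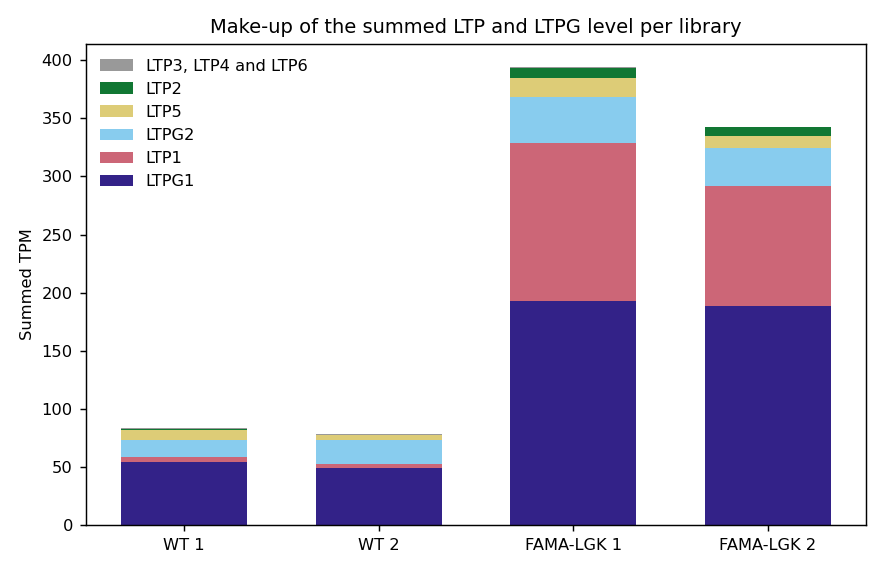
Summed TPM (vertical axis) of the 8 genes in each library, stacked by gene, with LTP3, LTP4 and LTP6 as one layer. LTPG1 is the largest layer in all 4 bars, and the LTP1 layer goes from 5.41% and 4.36% of the WT bars to 34.5% and 29.95% of the FAMA-LGK bars.

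Another 128 lipid transfer protein genes were taken from a list and from the annotation, the 8 genes left out, and 16 of them reached 1 TPM on average. In FAMA-LGK, 3 of the 16 were higher, 2 lower and 11 not called, where 6.45% of all genes tested were higher and 6.14% lower, with a median log2 fold change of 0.14 against 0.06 for all genes tested. The median was -0.50 over the 7 genes with at least 5 TPM and -0.22 without FAMA-LGK replicate 2, so the list as a whole had no settled direction. Of the called genes, LTPG6 and AT2G44290 passed the minimum only through the FAMA-LGK libraries and AT4G22630 only through the WT libraries. The filter thus fixed the direction in which these genes could be called, and nothing is read from the count of calls. Of the 112 genes below the minimum, 76 were at 0 TPM in all 4 libraries. The 16 include PDE320 and ABCI15, which act in chloroplast lipid import and share no family with the rest, both without a call.

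Another anchored gene, LTPG6 (AT1G55260), rose in FAMA-LGK, with 1.02 and 0.245 TPM in the WT libraries and 13.1 and 9.61 in the FAMA-LGK libraries, a log2 fold change of 2.95 (SE 0.37; adjusted p = 9.5e-04 by limma). It was seen on 11 and 3 reads in WT against 139 and 102 in FAMA-LGK. LTPG6 and AT2G44290 passed the minimum of 1 TPM only through the FAMA-LGK libraries, so that any difference of theirs could enter the fit in that direction alone. AT1G73890, annotated only by its family, rose from 7.61 and 5.85 to 16.0 and 15.6 TPM (log2 fold change 1.13, limma adjusted p = 0.0210). It had no call without FAMA-LGK replicate 1 (adjusted p = 0.0712), without FAMA-LGK replicate 2 (0.0580) or without a filter on low values (0.081). AT2G44290, likewise annotated only by its family, had 0 and 1 reads in WT against 23 and 15 in FAMA-LGK, and its call (log2 fold change 1.53, limma adjusted p = 0.0449) was lost without FAMA-LGK replicate 1 (0.0841), without a filter (0.0658) and with a pseudocount of 0.1 (0.078). It shares a run of 36 identical bases with AT2G44300, so reads of these genes may not be separated.

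DIR1 (AT5G48485), a lipid transfer protein needed for the mobile signal of systemic acquired resistance, was the most abundant gene of the family in WT and went the other way. It fell in FAMA-LGK, with 258.8 and 222.8 TPM in the WT libraries and 59.0 and 59.1 in the FAMA-LGK libraries, a log2 fold change of -2.01 (SE 0.20; adjusted p = 2.9e-04 by limma). In both WT libraries DIR1 was above LTPG1, and in FAMA-LGK both LTPG1 and LTP1 were above DIR1 in each library. The annotated span of DIR1 lies wholly within that of AT5G48480 on the opposite strand. Strand is not given in the sources used here. Whether their exons overlap, and how far their reads could be shared, was not tested. AT5G48480 was at 64.3 and 70.3 TPM in WT against 46.0 and 73.6 in FAMA-LGK.

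AT4G22630, annotated only by its family, fell in FAMA-LGK, with 12.5 and 12.6 TPM in the WT libraries and 0 and 0.586 in the FAMA-LGK libraries, a log2 fold change of -3.43 (SE 0.36; adjusted p = 3.6e-04 by limma), on 65 and 74 reads against 0 and 3. AT4G22630 passed the minimum of 1 TPM only through the WT libraries, so that its difference could enter the fit as a fall alone. The 11 genes without a call had log2 fold changes from -0.999 to 1.11. Among them XYP1, known for xylem differentiation, was at 1.65 and 0.870 TPM in WT against 2.91 and 0.557 in FAMA-LGK. LTPG5, AZI1 and EARLI1 lay below the minimum of 1 TPM on average. LTPG5 still reached 2.54 TPM, on 21 reads, in FAMA-LGK replicate 2, against 0 in FAMA-LGK replicate 1 and 0 and 0.210 in WT.

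**Figure D3:**
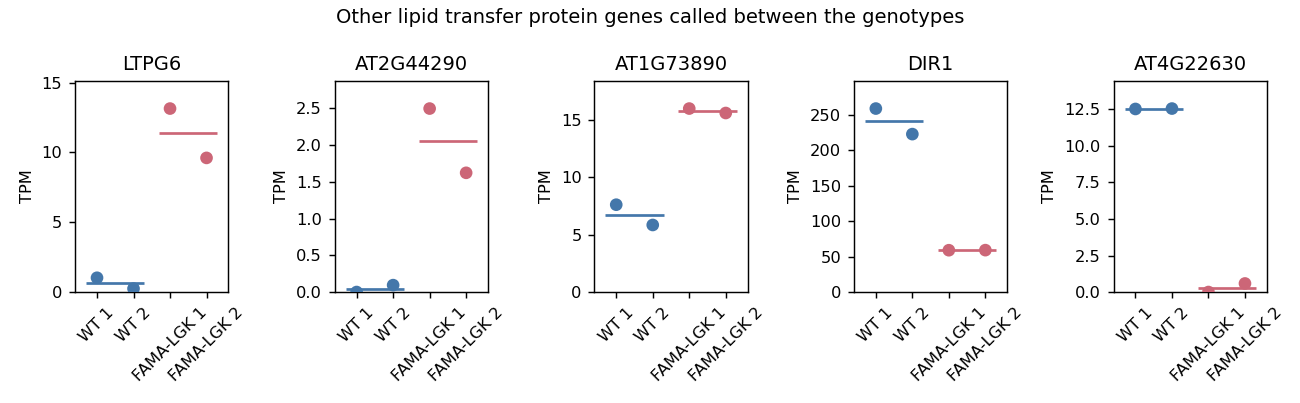
TPM (vertical axes, each starting at 0 with its own scale) of the 5 called genes among the other lipid transfer protein genes, in the 2 WT libraries (blue) and the 2 FAMA-LGK libraries (red); points are libraries and lines are genotype means. LTPG6, AT2G44290 and AT1G73890 are higher in FAMA-LGK, and DIR1 and AT4G22630 are lower.

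Genes that make the lipids of the cuticle were set beside the transfer proteins. Of 16 genes of wax synthesis and export, 12 reached 1 TPM on average. Of the other 4, CER4, MAH1 and WSD1 were at 0 TPM in each library and CER1 at 1.20 or less. Among the 12, 4 were higher in FAMA-LGK, 0 lower and 8 not called, with a median log2 fold change of 0.71. For all genes tested, 6.45% were higher and 6.14% lower, with a median of 0.06. KCS1, an enzyme of fatty acid elongation, rose from 43.4 and 28.2 to 375.5 and 382.5 TPM (log2 fold change 3.40, SE 0.24, limma adjusted p = 3.9e-05). CER10, also of the elongation complex, rose by 1.59 log2 units (adjusted p = 0.0160), FDH by 1.29 (0.00861) and ABCG11, a plasma membrane exporter of wax and cutin, by 1.22 (0.0105). CER10 had no call without FAMA-LGK replicate 1 (adjusted p = 0.0927). ABCG11 overlaps AT1G17850 on the opposite strand over 14.5% of its length, and that gene was at 1.27 and 1.16 TPM in WT against 4.01 and 3.38 in FAMA-LGK. The 8 genes without a call had log2 fold changes from -0.34 to 0.81, ABCG12, the partner of ABCG11 in wax export, at 0.69 among them.

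Of 17 genes of cutin synthesis and export, 10 reached 1 TPM on average, and the other 7 stayed at 0.795 TPM or less in each library. Of the 10, 2 were higher, 0 lower and 8 not called, with a median of 0.81, beside the same 6.45% and 6.14% of all genes. These were the acyltransferases GPAT8 (log2 fold change 1.19, limma adjusted p = 0.0235) and GPAT4 (0.99, adjusted p = 0.0275). Neither was called without FAMA-LGK replicate 1 (adjusted p = 0.0909 and 0.0917), and GPAT8 not without FAMA-LGK replicate 2 (0.0565). With ribosomal RNA and organelle genes removed, 8 wax genes and 4 cutin genes were called higher, and without a filter 1 and 0.

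Of 13 genes listed as transcription factors of cuticle genes, 8 reached 1 TPM on average. The other 5 stayed at 1.09 TPM or less in each library, with MYB106, SHN1 and SHN3 at 0 throughout. Of the 8, 5 were higher, 0 lower and 3 not called, with a median of 1.56. These counts again stand beside 6.45% and 6.14% of all genes tested. The wax, cutin and transcription factor lists were chosen with earlier results of these data known, so nothing is read from their counts. The 3 without a call had log2 fold changes from -1.43 to 0.77. The lowest was AT2G33510 (CFL1), at 3.28 and 1.09 TPM in WT against 0 and 0.229 in FAMA-LGK without overlap (limma adjusted p = 0.0826). It was seen on 29 and 11 reads in WT against 0 and 2 in FAMA-LGK. CFL1 passed the minimum of 1 TPM only through the WT libraries, so that its difference could enter the fit as a fall alone. Whether CFL1 is itself a transcription factor was not checked. MYB96, an activator of wax genes under drought, rose from 46.0 and 22.5 to 178.0 and 173.2 TPM (log2 fold change 2.41, SE 0.30, limma adjusted p = 8.9e-04). MYB94, which acts with MYB96, rose by 1.83 (adjusted p = 0.00113) and MYB30, an activator of fatty acid elongation genes, by 1.76 (9.6e-04). DEWAX, a repressor of wax genes in the dark, rose by 1.65 (adjusted p = 0.0109; 0.0506 without FAMA-LGK replicate 2 and 0.0841 without a filter), and ATML1, which binds the L1 box, by 1.45 (0.00514). The windows shown for LTP1, LTP2 and LTPG1 hold no L1 box, although LTP2 and LTPG1 each have 1 within 1000 bases. LTP3, a gene that MYB96 is known to activate, stayed at or below 0.830 TPM in each library, too low for a difference to be detectable. Whether these factors bear on the levels of the LTP and LTPG genes was not tested.

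**Figure D4:**
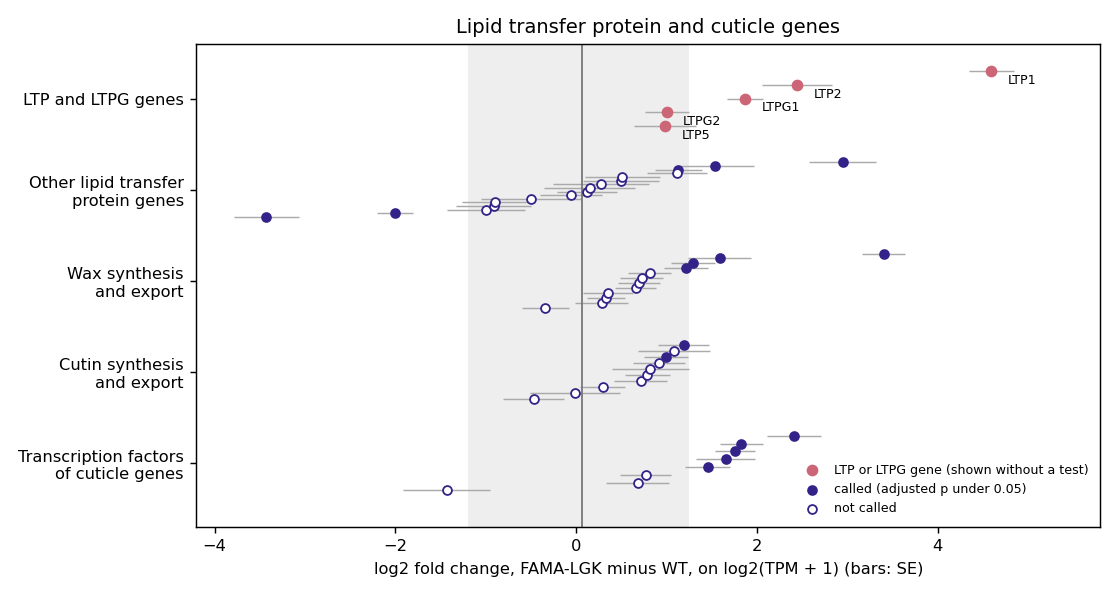
Log2 fold change, FAMA-LGK minus WT, on log2(TPM + 1) (horizontal axis, bars are SE) for the genes of each list that reached 1 TPM on average. The median of all 15143 genes tested is a grey line and their 5th to 95th percentile, -1.18 to 1.24, a grey band. LTP1, LTP2 and LTPG1 lie to the right of the band and LTPG2 and LTP5 inside it.

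Markers of other cells were read beside these levels. The 7 epidermis and pavement cell markers summed to 206.0 and 157.7 TPM in WT and to 326.7 and 314.2 in FAMA-LGK. Of them, 3 were higher and 4 not called, against 6.45% higher and 6.14% lower among all genes tested. The call of FDH was lost without a filter on low values (limma adjusted p = 0.0754). Of these 7, 5 also stand in the cuticle lists, and the other two were PDF1, at 7.44 and 6.55 TPM in WT against 26.0 and 20.4 in FAMA-LGK, and ACR4, at 2.58 and 1.295 and at 2.77 and 1.86. The 8 mesophyll markers summed to 483.3 and 542.7 TPM in WT and to 409.1 and 471.3 in FAMA-LGK. Of them, 1 (LHCB6) was lower and 7 were not called, beside the same shares of all genes. The call of LHCB6 was lost without a filter (limma adjusted p = 0.0936) and without a variance trend (0.084). None of the 5 trichome markers and none of the 6 markers of phloem and xylem reached the minimum, and they summed to at most 1.20 and 3.48 TPM in any library. The 3 called markers, PDF1, FDH and ATML1, were higher in the libraries where LTP1, LTP2, LTPG1 and LTPG2 were higher, and their part in those levels was not tested.

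The genes with the pattern most like each member were found by the root mean square difference of centred log2(TPM + 1) over the 4 libraries, among the genes tested. With 4 libraries in 2 genotypes this likeness is a description only. For LTP1 they were AT5G55180, a glycosyl hydrolase gene (0.206), HR4 (0.408) and the peroxidase gene PRXCB (0.439). The gene most like LTP1 thus differed from it more than any gene named for the other members. LTP1 had the highest log2 fold change of the 15143 genes tested and so lay at the end of the range, and nothing is read from this distance. For LTP2 the most like genes were the receptor kinase gene PERK1 (0.0418), MYB96 (0.0532) and CYP71B7 (0.0917). For LTPG1 they were NADP-ME2 (0.0322), GRXS13 (0.0413) and AT5G05600 (0.0470), for LTPG2 GLR3.4 (0.0153), AT5G60580 (0.0311) and RABG3B (0.0376), and for LTP5 AT4G22860 (0.0260), AT3G51720 (0.0558) and AGP9 (0.0658).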

How the data were processed

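Total RNA of sorted guard cells was sequenced in 2 WT and 2 FAMA-LGK libraries. The authors counted reads per gene with HTSeq-count and deposited 1 table of TPM values for 33602 genes, per the labels. The build TAIR10 and the tools Bowtie2, HTSeq and CASAVA 1.8.2 are named per the submitters' processing notes. No source used here gives gene lengths, strand or how reads with several matches were treated.

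Gene names, positions and sequences came from RefSeq TAIR10.1, which matched 32835 of the identifiers and all 8 genes. The table holds no coordinates. TPM keeps no depth, so whole reads were recovered from ratios between libraries, within a tolerance of 0.001 and with smallest counts up to 20000; the 2 reads of LTP6 come from its annotated length. Read numbers cover counting error only.

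log2(TPM + 1) was fitted with limma 3.58.1 (R 4.3.3; eBayes with a trend, two-sided) over the genes whose mean reached 1 TPM, and p-values were Benjamini-Hochberg adjusted over all 15143. The labels do not tell whether replicates were grown apart, and p-values therefore cover the spread between the libraries alone, which may be technical. Alternatives were the pseudocount, the filter, the scaling, the variance trend, a replicate block and leaving out each library. The 8 genes, the lists and the rule for named genes were chosen with earlier results of these data known. The rule took the 8 genes, the called genes of the other lipid transfer protein list, the called genes of each cuticle list up to 5, the 3 genes of most like pattern per member and the chromosome neighbours. LTPG5, AZI1, EARLI1, XYP1, ABCG12 and AT2G33510 were named outside it, after their values were seen. Python 3.11.15 with Biopython 1.88 and matplotlib 3.10.9 made tables and figures.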

Additional observations from a re-analysis of the deposited data

How the results depend on the processing

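The log2 fold changes of LTP1, LTP2, LTP5, LTPG1 and LTPG2 stayed above 0 in every alternative run, between 4.39 and 4.94, 2.01 and 3.58, 0.61 and 1.36, 1.79 and 2.07, and 0.79 and 1.22. Without a filter on low values limma called 511 genes in all (4581 at an unadjusted p under 0.05), 3 of the other lipid transfer protein genes, 1 wax gene, 4 transcription factors and 0 cutin genes (6 at an unadjusted p under 0.05), with 23227 genes tested. After removal of ribosomal RNA and organelle genes the median of all genes went from 0.06 to 0.24, 1504 genes were higher and 736 lower against 977 and 930, and 8 wax and 4 cutin genes were called. Without a variance trend 1 cutin gene was called. Leaving out 1 library gave 0 to 1685 calls in all, 0 to 4 other lipid transfer protein genes, 0 to 4 wax genes, 0 to 1 cutin genes and 0 to 5 transcription factors. The lone library of a genotype is then assumed to vary like the others. Both genotypes carry a replicated series number, but no label says whether it marks a shared planting or day, and deviations of same-numbered samples correlated at 0.078. With a replicate block 2844 genes were called. Of these, 7 were other lipid transfer protein genes, 6 wax genes and 2 cutin genes. Another 6 stood in the list of transcription factors, 1 of them lower. That fit leaves 1 residual degree of freedom and limma gave its prior unlimited weight, so its p-values take the spread as known. With 2 libraries a genotype, LTP3, LTP4 and LTP6 lie at the limit of depth.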
